A study of Mus musculus with 2 samples.

Results

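The 10 genes described here encode proteins of the blood vessel lining and the growth factors that act on it. They were chosen by name, as the endothelial genes Emcn, Pecam1, Cdh5, Kdr, Flt1, Tek, Tie1 and Eng and the ligand genes Vegfa and Vegfb, out of 10543 genes with a single symbol in the deposited table. Each had 1 locus, and all 10 were above 0 in both libraries. All 10 passed the filter at a mean of 1 FPKM (by definition, fragments scaled by transcript length and by the mapped fragments of the library). The filter removed few genes, as 10533 of the 10543 passed it. Levels below are on the scale of the deposited values, which the sources used here do not explain. The mice were of the hybrid strain B6C3F1, were aged 26 months and gave thigh skeletal muscle. The calorie restriction group (CR) ate 40% fewer calories for 25 months on a diet enriched to keep protein, vitamin and mineral intake per body weight near that of the control group, and the control group ate the control diet. Poly(A) RNA of each group was sequenced as 1 library, so no difference below has a replicate check, no p-value is given, and the order of neighbouring levels cannot be set against a spread. The depth of the libraries is unknown, and the sources used here do not give how many mice went into each.

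Endothelial cells line every vessel and, in skeletal muscle, form the dense capillary bed that supplies the fibres. Muscle fibres and other cells secrete VEGF-A, which acts on endothelial cells through the receptor tyrosine kinase VEGFR2 (Kdr). VEGFR1 (Flt1) also binds VEGF-A but signals weakly and can act as a trap, and VEGF-B binds only VEGFR1 of these receptors. The angiopoietins act through the receptor Tie2 (Tek), whose relative Tie1 has no well-defined ligand of its own and modulates Tie2.

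The promoters of 6 of the genes are shown. Kdr and Flt1, and Tek and Tie1, are receptor pairs whose ratios differed between the libraries, as described below, Emcn had the highest ratio of CR over control of the 10 genes, and Vegfa is the ligand of the Kdr and Flt1 pair. Each run is the 250 bases before the transcription start, from RefSeq on build GRCm38.p6, 5′ to 3′ on the strand of the gene. Capitals mark GGAAG or its reverse complement, a form of the core bound by ETS factors, which drive many endothelial genes. Capitals also mark ACGTG or GCGTG or their reverse complements, the core of the hypoxia response element. The windows are chr3:137340828-137341077 on the plus strand for Emcn, chr4:94739039-94739288 on the plus strand for Tek, chr5:75978456-75978705 on the minus strand for Kdr, chr4:118489850-118490099 on the minus strand for Tie1, chr5:147726012-147726261 on the minus strand for Flt1 and chr17:46032378-46032627 on the minus strand for Vegfa.
Emcn: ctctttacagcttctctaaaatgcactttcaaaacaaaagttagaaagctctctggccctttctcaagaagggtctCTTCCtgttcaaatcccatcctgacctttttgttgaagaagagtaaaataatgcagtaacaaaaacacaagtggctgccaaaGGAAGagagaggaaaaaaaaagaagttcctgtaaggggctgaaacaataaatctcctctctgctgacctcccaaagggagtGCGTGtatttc
Tek: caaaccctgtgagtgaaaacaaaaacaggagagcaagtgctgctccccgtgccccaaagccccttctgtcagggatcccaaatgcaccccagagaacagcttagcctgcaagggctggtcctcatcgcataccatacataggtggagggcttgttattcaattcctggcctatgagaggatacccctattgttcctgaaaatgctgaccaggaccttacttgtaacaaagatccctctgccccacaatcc
Kdr: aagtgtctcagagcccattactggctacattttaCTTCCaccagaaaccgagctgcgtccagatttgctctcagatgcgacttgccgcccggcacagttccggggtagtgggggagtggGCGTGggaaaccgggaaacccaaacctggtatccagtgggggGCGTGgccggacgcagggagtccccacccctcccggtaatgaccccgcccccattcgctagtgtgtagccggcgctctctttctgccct
Tie1: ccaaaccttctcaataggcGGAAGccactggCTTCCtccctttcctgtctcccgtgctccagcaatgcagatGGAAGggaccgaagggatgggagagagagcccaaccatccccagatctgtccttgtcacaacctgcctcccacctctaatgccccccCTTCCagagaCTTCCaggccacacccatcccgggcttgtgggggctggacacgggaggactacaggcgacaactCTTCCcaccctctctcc
Flt1: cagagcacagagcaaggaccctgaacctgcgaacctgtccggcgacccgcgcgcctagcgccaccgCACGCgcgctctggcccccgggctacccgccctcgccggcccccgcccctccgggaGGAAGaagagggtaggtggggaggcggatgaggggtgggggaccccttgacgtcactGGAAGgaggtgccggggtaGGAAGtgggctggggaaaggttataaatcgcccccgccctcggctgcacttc
Vegfa: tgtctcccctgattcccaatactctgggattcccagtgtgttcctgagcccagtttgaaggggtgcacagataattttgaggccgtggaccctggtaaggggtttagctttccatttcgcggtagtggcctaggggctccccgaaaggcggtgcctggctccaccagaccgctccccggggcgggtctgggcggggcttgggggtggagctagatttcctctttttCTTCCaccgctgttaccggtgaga

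Of the 10 genes, 8 had an entry in the promoter table, and Pecam1 and Cdh5 had none. GGAAG or its reverse complement was found in 6 of these 8 windows, where 64.1% of 32851 promoter windows of the same length held it. Tie1 had 6 matches, Flt1 had 3, Emcn and Eng had 2 each, Kdr and Vegfa had 1 each, and Tek and Vegfb had 0. Other sequences that ETS factors bind were not counted, so a 0 does not mean that a window lacks them. The hypoxia core was found in 4 of the 8 windows (Kdr and Vegfb with 2 matches, Emcn and Flt1 with 1), against 38.6% of all windows. These are letter matches in a short window and were not set against binding data.

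The endothelial genes did not differ between the libraries as a block. Emcn and Tek stood more than 2-fold higher in the CR library, Kdr stood just under 2-fold higher, and Pecam1, Cdh5, Flt1, Eng, Tie1, Vegfa and Vegfb lay closer together. Each log2 ratio sets CR over control after adding 1 to both FPKM values, and a fold is that ratio before the logarithm, so folds of low genes are understated. At a threshold of 2-fold, 2 of the 10 genes stood higher under CR, 0 stood lower and 8 lay within it. Of all 10533 genes tested, 8.01% were past 2-fold on the higher side of CR and 10.7% on the lower side, and of the 4482 genes whose mean lay in the range of the 8 endothelial genes (132 to 450.0 FPKM) the shares were 4.8% and 5.49%. A count of 2 among 10 genes chosen by name is given as a description and is not read as particular to them.

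**Figure D1:**
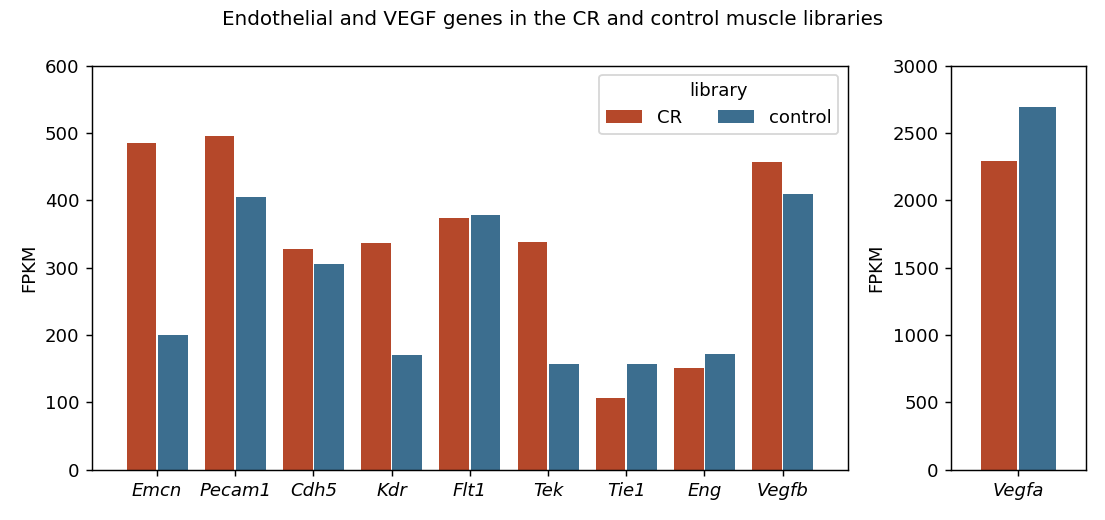
FPKM (vertical axes, linear, each from 0) of the 10 genes in the CR library (left bar of each pair) and the control library (right bar), with Vegfa on its own axis. Each bar is 1 library, so there are no error bars. Emcn, Kdr and Tek differ most by ratio, with 486, 336 and 338 FPKM in the CR library and 200.4, 170.5 and 157 FPKM in the control library.

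Emcn, on chromosome 3 (mm9, 137004042 to 137094033, plus strand), encodes endomucin, a sialomucin on the surface of capillary and venous endothelium. It stood at 486 FPKM in the CR library and 200.4 FPKM in the control library, a log2 ratio of 1.27 and a fold of 2.42. This was the highest ratio of the 10 genes, and 94.4% of all genes tested had a lower one. By level, Emcn ranked 3 of the 10 in the CR library and 6 in the control library.

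The adhesion genes stood closer together. Pecam1 (chromosome 11, 106515530 to 106576595, minus strand) encodes CD31, which joins endothelial cells to each other and is also carried by platelets and leukocytes. It stood at 495 FPKM in the CR library and 405 FPKM in the control library, a fold of 1.22. Cdh5 (chromosome 8, 106625525 to 106668402, plus strand) encodes VE-cadherin, the adhesion molecule of the endothelial adherens junction. It stood at 328 FPKM in the CR library and 305 FPKM in the control library, a fold of 1.07. Cdh5 is largely restricted to endothelium, and its log2 ratio of 0.10 was near the median of all genes tested, -0.03. Within a library the Emcn value was 1.48 times that of Cdh5 in the CR library and 0.656 times in the control library. In bulk muscle, fewer cells of a type and less RNA per cell cannot be told apart, and this holds for each gene here.

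The VEGF receptors differed from each other. Kdr (chromosome 5, 76328908 to 76374490, minus strand), the main signalling receptor for VEGF-A, stood at 336 FPKM in the CR library and 170.5 FPKM in the control library, a log2 ratio of 0.98 and a fold of 1.97. It lay just below the 2-fold threshold, with Tek the gene just above it, and crossed the threshold (log2 ratio 1.01) when ratios were centred on the median gene. Flt1, on the same chromosome (148373179 to 148537923, minus strand), stood at 374 FPKM in the CR library and 379 FPKM in the control library. Its log2 ratio was -0.02, and it was 0.01 after centring on the median gene, so its direction is not settled. Kdr over Flt1 was 0.900 in the CR library and 0.450 in the control library, a difference on the log2 scale close to that of Kdr itself. A ratio of genes within a library does not depend on how the libraries are scaled.

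The TIE receptors, whose genes both lie on chromosome 4, stood on opposite sides. Tek (94405991 to 94541630, plus strand) stood at 338 FPKM in the CR library and 157 FPKM in the control library, a log2 ratio of 1.11 and a fold of 2.15. Tie1 (118143685 to 118162645, minus strand) stood at 107 FPKM in the CR library and 158 FPKM in the control library, a log2 ratio of -0.55, or 1.47-fold lower in the CR library. Tie1 had the lowest ratio of the 10 genes, and 19.9% of all genes tested had a lower one. The pair stood apart in the CR library and at near equal levels in the control library: Tek over Tie1 was 3.16 in the CR library and 0.993 in the control library. The first ratio was 3.18 times the second, a wider gap than that of Kdr over Flt1.

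Eng (chromosome 2, 32502115 to 32539438, plus strand) encodes endoglin, an endothelial co-receptor for ligands of the TGF-beta and BMP family. It stood at 152 FPKM in the CR library and 172 FPKM in the control library, a log2 ratio of -0.18. Its last bases overlap Fpgs on the opposite strand, which stood at 38.7 FPKM in the CR library and 42.8 FPKM in the control library. The kit is not described as keeping strand information, so it is unknown whether reads of the overlap can be assigned. Eng over Cdh5 was 0.462 in the CR library and 0.564 in the control library.

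**Figure D2:**
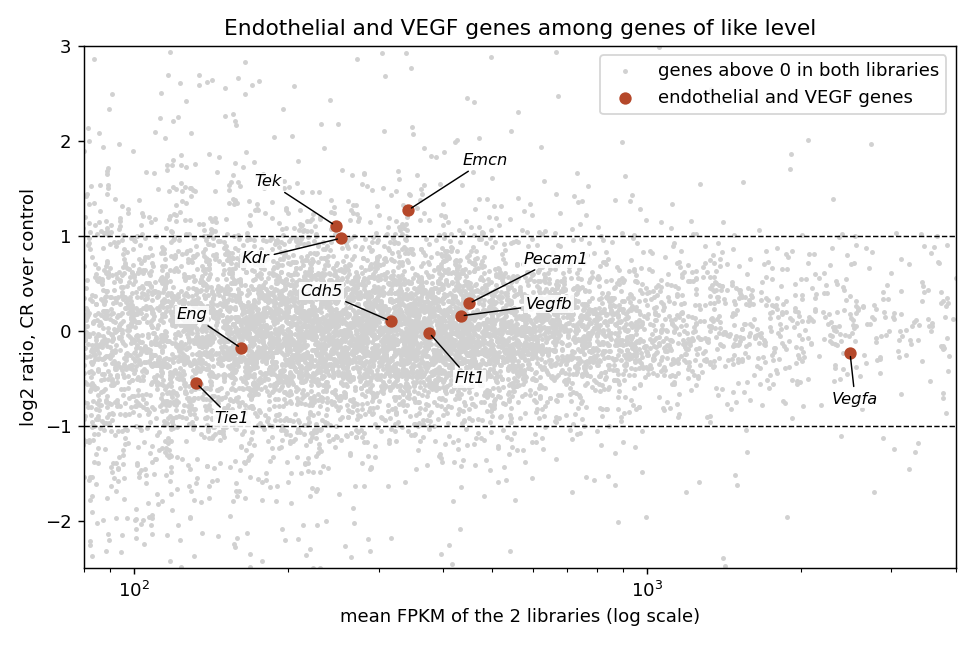
Log2 ratio of CR over control (vertical axis, dashed lines at 2-fold) against mean FPKM of the 2 libraries (horizontal axis, log scale); red points are the 10 genes, grey points other genes above 0 in both libraries, with the axes cropped to the range of the 10 genes. Emcn (1.27) and Tek (1.11) lie above the upper line, Kdr (0.98) lies on its lower side, and Tie1 (-0.55) is the lowest red point.

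Vegfa was the most abundant of the 10 genes in both libraries. It lies on chromosome 17 (46153943 to 46169326, minus strand), and its locus merges 6 annotated transcript copies, so splice forms cannot be told apart. It stood at 2290.45 FPKM in the CR library and 2692 FPKM in the control library, a log2 ratio of -0.23, or 1.18-fold lower in the CR library. That level was above 96.6% of the genes tested in the CR library and 97.5% in the control library. Vegfa was thus among the abundant transcripts of both libraries, and its values differed by less than 2-fold. Vegfb (chromosome 19, 7056766 to 7062218, minus strand) encodes VEGF-B, a ligand of Flt1 made in heart, muscle and brown fat. It stood at 457 FPKM in the CR library and 410.0 FPKM in the control library, a log2 ratio of 0.16. The locus lies inside that of Dnajc4 on the same strand (175 FPKM in the CR library and 192 FPKM in the control library) and overlaps 3 unnamed loci on the opposite strand with up to 815 FPKM in the CR library and 928 FPKM in the control library, so its value is uncertain.

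Set against each other, Vegfa over Vegfb was 5.01 in the CR library and 6.57 in the control library, a difference of -0.39 on the log2 scale. Vegfa over Kdr, the ligand against its main receptor, was 6.81 in the CR library and 15.8 in the control library. Vegfa over Flt1 was 6.13 in the CR library and 7.11 in the control library. The ligand was lower relative to Kdr in the CR library, and most of that gap came from the Kdr value.

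**Figure D3:**
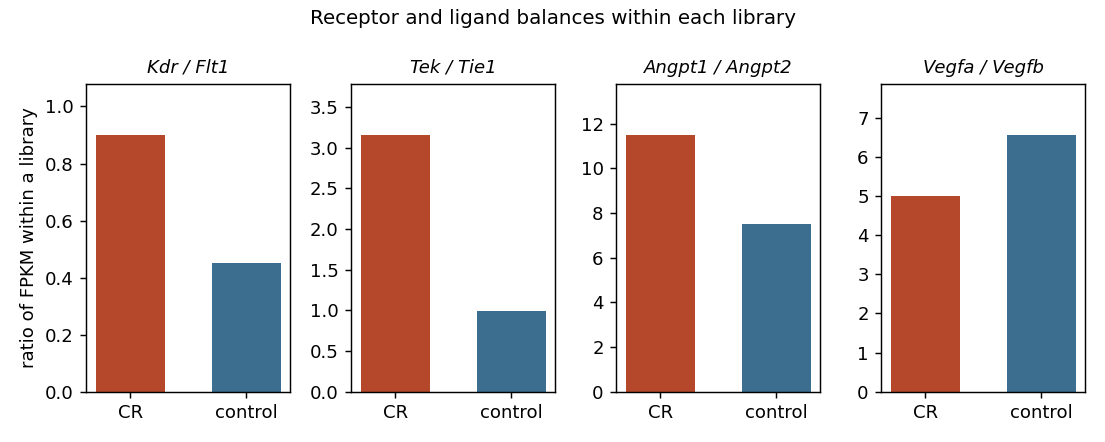
Ratios of FPKM within a library (vertical axes, linear from 0, separate scales) for Kdr over Flt1, Tek over Tie1, Angpt1 over Angpt2 and Vegfa over Vegfb, with the CR library left of the control library and 1 library per bar. The first 3 ratios are higher in the CR library (0.900, 3.16 and 11.5, against 0.450, 0.993 and 7.52 in the control library) and Vegfa over Vegfb is lower (5.01 against 6.57).

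The 8 endothelial genes had a median log2 ratio of 0.20, beside -0.03 over all genes tested, and a median fold of 1.15. Their FPKM summed to 2615 in the CR library and 1947 in the control library, a ratio of 1.34. All loci summed to 1.36e+07 in the CR library and 1.28e+07 in the control library. Among the 8, Emcn, Tek and Kdr differed most in FPKM, so the summed ratio rests largely on them. The values were higher in the CR library for 5 of the 8 and lower for 3. The highest exceeded the lowest 4.62 times in the CR library and 2.59 times in the control library, so the 8 genes spread more widely in the CR library. Another 22 endothelial markers from a list that left these genes out stood close to this: their median log2 ratio was 0.21 and their sum was 5791 FPKM in the CR library and 4517 FPKM in the control library, a ratio of 1.28. Of the 22, 2 were past 2-fold on the higher side of CR, 1 was past it on the lower side, 19 lay within 2-fold, and none was at 0 in either library. The higher count was 3 after centring on the median gene, and the lower count was 2 after the libraries were rescaled without the 50 most abundant genes. The genes past 2-fold were Ecscr, an endothelial surface protein (260 FPKM in the CR library and 52.5 FPKM in the control library), Tm4sf1 (280.0 FPKM in the CR library and 115 FPKM in the control library) and Myct1 (59.8 FPKM in the CR library and 157 FPKM in the control library). The most abundant of the list, Eltd1, an adhesion receptor of endothelium, stood at 791 FPKM in the CR library and 505 FPKM in the control library.

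The remaining genes of the receptor systems showed the same mixture. Angpt1, the activating ligand of Tek, stood at 424 FPKM in the CR library and 170.0 FPKM in the control library, a fold of 2.49, which was close to the Tek fold of 2.15. Angpt2, which can oppose Angpt1, was low in both, at 36.9 FPKM in the CR library and 22.6 FPKM in the control library. Ptprb, the phosphatase VE-PTP that acts on Tek, stood at 868 FPKM in the CR library and 521 FPKM in the control library, a fold of 1.67. In the TIE system 4 of 5 measured genes had higher values in the CR library by any amount, and Tie1 did not. Of them, only Tek and Angpt1 were past 2-fold. A higher value alone is common: 50.7% of all genes tested had a ratio below that of Flt1 (-0.02), and the others did not. In the VEGF system Flt4, the receptor VEGFR3 of lymphatic endothelium, stood at 103 FPKM in the CR library and 267 FPKM in the control library, 2.58-fold lower in the CR library. Figf, which encodes VEGF-D, stood at 193 FPKM in the CR library and 223 FPKM in the control library, and the co-receptor gene Nrp2 at 224 FPKM in the CR library and 198 FPKM in the control library. Nrp1 lies in a locus that merges several symbols and was not analysed here.

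The counts of the next lists are descriptions, beside 8.01% of all genes tested past 2-fold on the higher side of CR and 10.7% on the lower side. Among 12 transcription factors of endothelial cells, 1 was past 2-fold on the higher side and 0 on the lower side, with a median log2 ratio of 0.23. The higher one was Erg, an ETS factor that maintains endothelial identity, at 294 FPKM in the CR library and 141 FPKM in the control library. Fli1, a related ETS factor, stood at 130 FPKM in the CR library and 84.7 FPKM in the control library, and Ets2 at 384 FPKM in the CR library and 614 FPKM in the control library. Of 10 Notch genes, which pattern vessel sprouts, 1 was higher and 2 were lower: Notch1 stood at 350.2 FPKM in the CR library and 134 FPKM in the control library. Its ligand gene Dll4 stood at 91.4 FPKM in the CR library and 188 FPKM in the control library, and the endothelial receptor gene Notch4 at 136 FPKM in the CR library and 328 FPKM in the control library. Of 14 genes of BMP and TGF-beta signalling other than Eng, 0 were higher and 2 were lower, the inhibitory factors Smad7 (57.4 FPKM in the CR library and 185 FPKM in the control library) and Smad6 (18.6 FPKM in the CR library and 41.7 FPKM in the control library). Junction genes other than Cdh5 and Pecam1 had 0 of 11 higher and 2 lower, F11r and Jup, with log2 ratios of -1.45 and -1.54. Both are also expressed by epithelium. The median log2 ratio of the 11 was -0.21, and 3 had a ratio above 0. The highest of these was Cldn5, at 166 FPKM in the CR library and 91.8 FPKM in the control library, a log2 ratio of 0.85. Ctnnb1, the most abundant of the 11, had a log2 ratio of -0.27. Erg lay within 2-fold once the CR library was scaled to the control sum of all but the top 50 genes by level, and Dll4 and Smad6 with a pseudocount of 5 FPKM. The higher Notch genes numbered 2 after centring on the median gene, and the lower ones numbered 3 after the rescaling named for Erg.

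The regulators of Vegfa lay mostly within 2-fold, as did Vegfa and most genes tested. Over all genes tested, 8.01% were past 2-fold on the higher side of CR and 10.7% on the lower side. Of 12 genes of oxygen sensing and of the PGC-1alpha and ERRalpha pathway, 0 stood past 2-fold on the higher side of CR and 1 on the lower side, with a median log2 ratio of -0.19. The lower one was Vhl, which marks HIF proteins for destruction, at 49.4 FPKM in the CR library and 136 FPKM in the control library. Ppargc1a, the coactivator PGC-1alpha, stood at 488 FPKM in the CR library and 902 FPKM in the control library, and Egln3, an oxygen-sensing hydroxylase, at 665 FPKM in the CR library and 379 FPKM in the control library. Of 13 hypoxia-inducible genes, 2 were higher (Ankrd37 and Ero1l) and 1 was lower; Adm was listed at 0 in the CR library and 34.8 FPKM in the control library, Ero1l at 81.0 FPKM in the CR library but 0 in the control library, and a 0 in this table can be a failed estimate. Among 8 secreted inhibitors of angiogenesis, Thbs2 was the 1 past 2-fold, at 74.1 FPKM in the CR library and 367 FPKM in the control library. The median log2 ratio of the 8 was 0.26, and 5 had a ratio above 0. Those 5 include Sparc (1074 FPKM in the CR library and 672 FPKM in the control library), the most abundant of the list. They also include Serpinf1 (309.7 FPKM in the CR library and 197 FPKM in the control library). Among 13 other angiogenic factors and receptors 2 were higher, Fgf1 (581 FPKM in the CR library and 278 FPKM in the control library) and the low-level Fgf2 (69.3 FPKM in the CR library and 2.29 FPKM in the control library), and the 2 lower ones, Aplnr and Edn1, were listed at 0 in the CR library and at 20.7 and 11.9 FPKM in the control library. Fgf1 lay within 2-fold after the same rescaling.

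Markers of other cells differed between the same libraries. Of 10 pericyte and smooth muscle genes, which mark the cells around vessels, 3 stood past 2-fold on the higher side of CR and 0 on the lower side. Their median log2 ratio was 0.66, and their sum was 4837 FPKM in the CR library and 3200.0 FPKM in the control library. The 3 were the contractile genes Myh11, Acta2 and Tagln, with log2 ratios of 1.43, 1.26 and 1.13. Of the 10, 8 had a ratio above 0, and Abcc9 (-0.47) and Cspg4 (-0.36) did not. Among the 8 were Rgs5, the most abundant of the list, with a log2 ratio of 0.85, and Pdgfrb with 0.11. White adipocyte markers had 9 of 11 higher, a median of 1.93 and a sum of 28517 FPKM in the CR library and 10688 FPKM in the control library. The 9 include Adrb3, listed at 48.9 FPKM in the CR library and 0 in the control library, and the count was 8 after the rescaling named for Erg. Slow-twitch fibre genes had 8 of 8 higher, a median of 3.11 and a sum of 132105 FPKM in the CR library and 15418 FPKM in the control library. Fast-twitch genes had 1 of 9 higher (0 after the rescaling named for Erg) and a median of 0.58. Red cell and platelet markers had 2 of 3 higher, led by the globin gene Hba-a1 at 48110.1 FPKM in the CR library and 15925 FPKM in the control library, a value that is uncertain because its paralog Hba-a2 is nearly identical. Leukocyte markers had 2 of 5 higher and sums of 401 FPKM in the CR library and 336 FPKM in the control library, and Cd14 was at 0 in the control library. Fibroblast and tendon markers had 3 of 10 higher and 3 lower, with Tnc at 0 in the CR library. The 4 lymphatic markers measured summed to 281 FPKM in the CR library and 398 FPKM in the control library, with 1 higher (Lyve1) and 1 lower (Flt4). The part of these cell types in the values of Emcn, Tek, Kdr and the other endothelial genes was not tested.

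**Figure D4:**
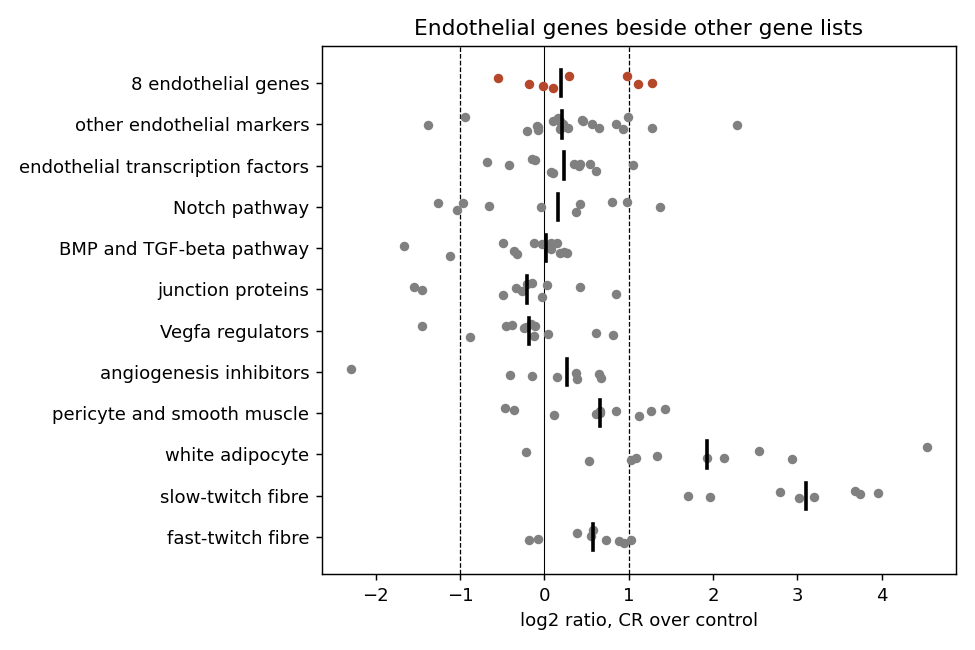
Log2 ratio of CR over control (horizontal axis, dashed lines at 2-fold) for the 8 endothelial genes (red) and for genes of other lists (grey, the 10 genes left out, genes at 0 in a library not drawn), with black ticks at each list's median. The endothelial genes have a median of 0.20, close to the other endothelial markers (0.21), beside 0.66 for pericyte and smooth muscle, 1.93 for white adipocyte and 3.11 for slow-twitch fibre genes.

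By distance on the log2(FPKM + 1) scale over the 2 libraries, the genes nearest to Vegfa were Myoz3 (2214 FPKM in the CR library and 2604 FPKM in the control library), Adssl1 and Iars. The nearest to Kdr were Sox13 (334 FPKM in the CR library and 173 FPKM in the control library), Ppard and Pde8a, at distances of 0.025, 0.029 and 0.063. With 2 libraries such likeness is a description of levels.

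Unnamed transcribed loci overlapped 4 of the 10 genes, and Emcn, Pecam1, Cdh5, Tek and Tie1 overlapped no other locus. Inside Flt1, 8 unnamed loci on the same strand lay close together, between 148446917 and 148450348. Of these, 4 were at 0 in both libraries. Another 3 had near equal values: 125, 90.3 and 124 FPKM in the CR library against 127, 82.9 and 123 FPKM in the control library. The remaining one was listed at 0 in the CR library and 138 FPKM in the control library. Flt1 is known to make a soluble, shortened receptor by ending its transcript inside the gene, and the gene-level value does not separate it. Kdr overlapped 9 unnamed loci assigned to the opposite strand, of which 2 stood at least 2-fold higher and 1 at least 2-fold lower in the CR library, 3 were listed at 0 in the CR library, and 3 lay within 2-fold. As the kit is not described as keeping strand information, it is unknown whether reads there can be assigned between Kdr and these loci.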

How the data were processed

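Thigh muscle poly(A) RNA of 1 CR and 1 control library was read as 76 bp pairs, per the labels. The submitters' processing notes name build mm9 with TopHat 1.2.0, Cufflinks and Cuffdiff; the sources used here do not give options or annotation. The authors deposited values per locus that the file headers name FPKM, by definition scaled by transcript length and mapped fragments. After the subtraction described next, all loci summed to 1.36e+07 in the CR library and 1.28e+07 in the control library. The muscle gene Ttn was at 0 in both. The origin of this scale is unknown. The lowest deposited value was 1, and 98 of 101 control values between 1 and 2 but 0 of 77 between 2 and 3 carried over 6 digits, so 1 was subtracted (an offset inferred from the values). Loci merging several symbols (234) were left out and loci of a symbol summed. Ratios used a pseudocount of 1 FPKM and a mean of at least 1 FPKM; at least 2-fold was counted, with no test at 1 library per group. The ratio script was tested on a copy of the control values with set fold changes and no noise, which checks the arithmetic and not the calls. Alternatives were pseudocounts of 0.1 and 5, centring, rescaling, largest locus and other filters. Python 3.11.15, numpy 2.4.6, pandas 2.3.3 and matplotlib 3.10.9 were used.

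The 10 genes and the gene lists were chosen with earlier results of these data known. The rule named, of each list, the most abundant gene and up to 3 with the largest ratio above 0 in both libraries, plus the 3 genes nearest to Vegfa and to Kdr. Genes outside it that are named as past 2-fold or listed at 0 were named after their values were seen, and not every gene the rule takes is printed.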

Additional observations from a re-analysis of the deposited data

Results flagged for a closer look

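Of the unnamed loci that overlap Kdr and Vegfa, which are outside the gene-level values, 3 were higher in the CR library by at least 2-fold or against a 0. Inside Vegfa, on the same strand, a locus of 77 bases (chromosome 17, 46160414 to 46160490, mm9) was listed at 988 FPKM in the CR library and 0 in the control library; it is shorter than the RNA fragments of about 200 nt. Opposite Kdr, a locus of 1941 bases that overlaps the end of the gene and runs past it (chromosome 5, 76328861 to 76330801) stood at 92.5 FPKM in the CR library and 35.3 FPKM in the control library, and one of 196 bases (76348238 to 76348433) at 40.3 FPKM in the CR library and 13.8 FPKM in the control library. Their folds of 2.57 and 2.79 exceed the Kdr fold of 1.97, with 1 library each and no test of the difference. Other loci opposite Kdr went the other way: 3 were listed at 0 in the CR library and at 164, 199 and 127 FPKM in the control library, and another stood at 4.89 FPKM in the CR library and 29.6 FPKM in the control library, 5.18-fold lower in the CR library.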

How the results depend on the processing

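The 10 log2 ratios moved by at most 0.1 in all 50 recomputations (pseudocounts of 0.1 and 5 FPKM, centring on the median gene, equal sums without the 50 most abundant genes, largest locus of a symbol). With no replicates, 0.1 was the tolerance. Only the ratio of Flt1 changed sign among them (from -0.09 to 0.01). Emcn ranged from 1.2 to 1.30, Tek from 1.03 to 1.14 and Kdr from 0.90 to 1.01, so Kdr reached 2-fold under centring, and Tie1 from -0.63 to -0.52. The median of the 8 endothelial genes ranged from 0.12 to 0.23. Over the whole table, 390 genes were at least 2-fold higher and 417 lower in the CR library when a mean of 100 FPKM was required, and 674 were lower among genes above 0 in both libraries, against 844 higher and 1124 lower with the filter at 1 FPKM. Among 190 counts per list, 7 moved by over 1.5 times, each by 1 gene; Erg lay within 2-fold after rescaling. No paired analysis was possible because each group has 1 library. Depth is unknown, so counting error cannot be given, and the spread between mice is not measured.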
